A study of Mus musculus with 8 samples.

Results

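H3K27ac peaks were examined around 9 genes that guide the movement of T cell precursors within the thymus and out of it: the chemokine receptors *Cxcr4*, *Ccr7*, *Ccr9* and *Ccr4*, the egress genes *S1pr1*, *Klf2* and *Cd69*, and the adhesion genes *Itga4* and *Cd44*. These were taken by name and function, not by their values, out of 21631 protein-coding genes on the autosomes and the X chromosome. Earlier results of these data were known when the genes were chosen. The study removed IkE120, an enhancer of the Ikaros gene *Ikzf1*, with CRISPR/Cas9 from P5424, a mouse cell line that resembles T cell precursors. H3K27ac ChIP-seq was carried out in 1 library of wt P5424 cells and 1 library of ΔIkE120 P5424 cells, which are 1 clone with a homozygous deletion. Both were grown in the same medium, and whether the ChIP-seq cells had been stimulated is not given in the sources used here. The sequencing depth is unknown, and with 1 library per genotype there are no replicates, so no test was made and clone and deletion cannot be told apart.

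Precursors entering the thymus follow chemokines towards the cortex and later the medulla, where stromal cells present ligands for chemokine receptors. Mature thymocytes leave along a gradient of sphingosine 1-phosphate (S1P), which the receptor encoded by *S1pr1* senses, while the transcription factor *Klf2* activates *S1pr1* and the surface protein CD69 holds the receptor inside the cell. H3K27ac, the acetylation of lysine 27 of histone H3, marks active promoters and enhancers, and in bulk cells a peak does not tell how many of the cells carry it.

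Each genotype had 1 list of broad peaks. The wt list held 34553 peaks over 25189952 bp and the ΔIkE120 list 29902 peaks over 22143580 bp, so that the bases in peaks were 0.879 of those in wt. Genes that mark T cell precursors carried H3K27ac in this line: 14 of 15, among them *Cd3e*, *Ptcra* and *Rag1*, had a peak within 1 kb of the gene start in both lists, with *Il2ra* as the exception. Summed window by window over these 15 markers, 101638 bp were in peaks in wt and 96751 bp in ΔIkE120, where bases in overlapping windows, such as those of *Cd3g* and *Cd3d*, count once for each gene. Of the B cell markers, 1 of 5 (*Ebf1*) had such a peak in each list, and of the myeloid and NK cell markers 0 of 4 and 0 of 3.

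*Cxcr4*, *Ccr7* and *Cd69* had a peak within 1 kb of the gene start in both genotypes, and the other 6 genes had none there in either. That is 3 of 9 in wt, where 45.0% of 20924 genes with a known strand had a start peak, and 3 of 9 in ΔIkE120, where 44.3% had. Among these 9 genes, 0 had a start peak in 1 genotype alone, against 1.12% of all genes in the wt list alone and 0.487% in the ΔIkE120 list alone. Within gene windows (the gene with 20 kb either side), 5 genes reached a mean of 500 bp in peaks over both lists, *Ccr7*, *Ccr9*, *Ccr4*, *Cxcr4* and *Cd44*. Of these 5, 0 were at least 1.5-fold lower in ΔIkE120 and 0 at least 1.5-fold higher, while 9.09% and 1.83% of 13703 windows were. The median ratio of ΔIkE120 to wt was 0.778 over the 5 windows and 0.937 over all windows with a ratio, whose interquartile range ran from 0.822 to 1.04. *S1pr1* and *Itga4* had no peak of either list in their windows, as did 32.1% of all gene windows. *Klf2* and *Cd69* held too few bases in peaks to be set against the fold.

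**Figure D1:**
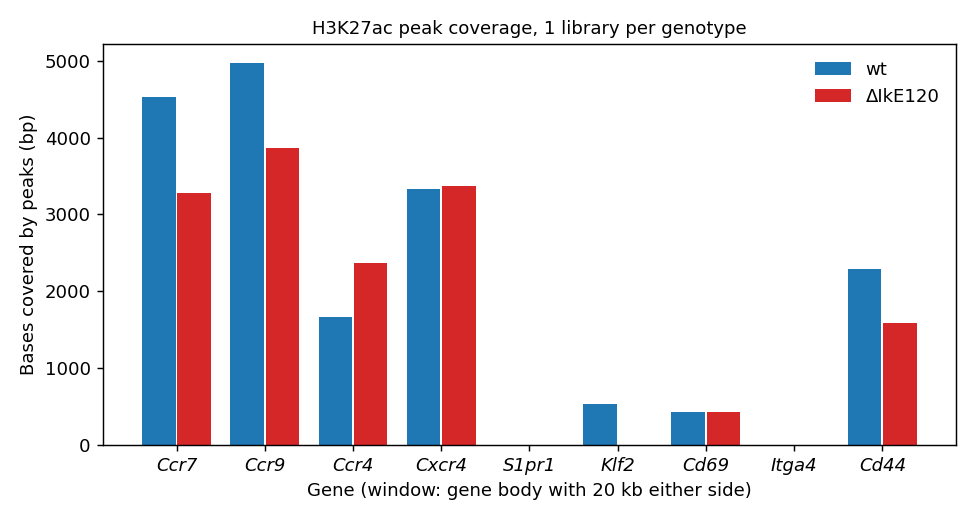
Bases covered by H3K27ac peaks (bp, vertical axis) in the window of each of the 9 genes, for the 1 wt library (blue) and the 1 ΔIkE120 library (red). *Ccr9* had the most in wt (4966 bp) and in ΔIkE120 (3863 bp), *Ccr4* stands at 1665 bp in wt and 2365 bp in ΔIkE120, and *S1pr1* and *Itga4* stand at 0.

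*Cxcr4*, which encodes the receptor for Cxcl12, lies on the minus strand of chromosome 1 and starts at 128592299 (GRCm38). Its start peak in wt ran from 128591343 to 128592555 (1213 bp), with a fold enrichment of 4.34 and a -log10 q of 30.43, as the peak caller gave them. In ΔIkE120 it ran from 128590688 to 128592574 (1887 bp), with a fold enrichment of 3.77 and a -log10 q of 23.40. This was the strongest start peak of the 9 genes in each genotype, at the 97.4th percentile of wt start peaks by -log10 q and at the 89th of ΔIkE120 start peaks. The longer ΔIkE120 peak also spans a separate wt peak of 427 bp inside the gene, from 128590741 to 128591167. Over the window, 3333 bp were in 5 wt peaks and 3369 bp in 4 ΔIkE120 peaks, a ratio of 1.01. The bases in peaks were therefore nearly the same in both libraries, and the pair of peaks about 10 kb upstream was also found in each (876 bp and 460 bp in wt, 877 bp and 339 bp in ΔIkE120).

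*Ccr7*, the receptor for Ccl19 and Ccl21 that leads thymocytes into the medulla, starts at 99155077 on the minus strand of chromosome 11. Its start peak lay just upstream and measured 475 bp in wt (99155149 to 99155623, fold enrichment 3.86, -log10 q 4.75) and 367 bp in ΔIkE120 (99155222 to 99155588, 3.92 and 4.49). Both were weak for start peaks, whose median -log10 q was 12.48 in wt and 12.85 in ΔIkE120. The longest peak of the window lay 7.5 kb upstream in wt (99162598 to 99163904, 1307 bp) and 7.7 kb upstream in ΔIkE120 (99162817 to 99163740, 924 bp). Another lay further upstream within the lncRNA gene *Gm32249*, at 1103 bp in wt and 843 bp in ΔIkE120. Each genotype had 6 peaks in the window and every one of them overlapped a peak of the other, yet they covered 4524 bp in wt and 3284 bp in ΔIkE120, a ratio of 0.726 (log2 -0.46). The peaks were thus in the same places, and 5 of 6 were shorter in ΔIkE120. Inside the gene itself, the covered bases were 790 bp in wt and 738 bp in ΔIkE120.

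*Ccr9* encodes the receptor for Ccl25, which thymic epithelium makes. It starts at 123767211 on the plus strand of chromosome 9, and no peak reached within 1 kb of this base. The nearest was inside the gene, 1.7 kb from the start in wt (123768895 to 123769845, 951 bp, -log10 q 5.08) and 1.8 kb from it in ΔIkE120 (123769027 to 123769755, 729 bp, 3.21). The strongest lay upstream, from 123757123 to 123758197 in wt (-log10 q 5.68) and from 123757125 to 123757837 in ΔIkE120 (6.07), and the longest in ΔIkE120 ran from 123762788 to 123763944 (1157 bp), where wt had a pair of shorter peaks. With 10 peaks over 4966 bp in wt and 6 peaks over 3863 bp in ΔIkE120, the ratio was 0.778 (log2 -0.36). *Ccr9* thus had the most peaks and the most covered bases of the 9 genes in wt, without a peak at its start. Of its wt peaks, 3 had no ΔIkE120 counterpart, from 123753899 to 123754202 (-log10 q 2.76), from 123770753 to 123771013 (2.11) and from 123793026 to 123793298 (2.05). All 3 were below the median -log10 q of the wt list, 4.12. The last of them lies within the neighbouring gene *Fyco1*, and the peaks inside the first part of *Ccr9* also lie in the lncRNA gene *Gm17021*, so that they cannot be assigned to 1 gene by position. Within the gene alone, without the 20 kb flanks, the log2 ratio was -0.70 and past 1.5-fold lower. The share of all genes past the fold at this setting is not given here.

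*Ccr4*, the receptor for Ccl17 and Ccl22, was the single one of the 5 measured windows with a ratio well above 1. Its window held 2 peaks over 1665 bp in wt and 4 peaks over 2365 bp in ΔIkE120, a ratio of 1.42 (log2 0.51). Peaks at 114484965 to 114485444 (-log10 q 1.60) and 114510165 to 114510434 (-log10 q 1.87), both outside the gene, had no wt counterpart. With all peaks kept, the difference came from these weak peaks, since the log2 ratio was -0.04 within the gene alone. The gene start used here, 114505476 on the minus strand of chromosome 9, had no peak in either genotype. The promoter table instead places a transcript start of *Ccr4* at 114496544, and peaks lay on either side of this base in both genotypes. In wt they ran from 114495808 to 114496466 (659 bp, -log10 q 2.59) and from 114496687 to 114497692 (1006 bp, 6.92), and in ΔIkE120 from 114496004 to 114496514 (511 bp, 4.56) and from 114496700 to 114497803 (1104 bp, 5.83). With any annotated transcript start in place of the gene start, *Ccr4* therefore joined *Cxcr4*, *Ccr7* and *Cd69*, giving 4 of 9 in each genotype, where 48.0% and 47.3% of all genes had such a peak.

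**Figure D2:**
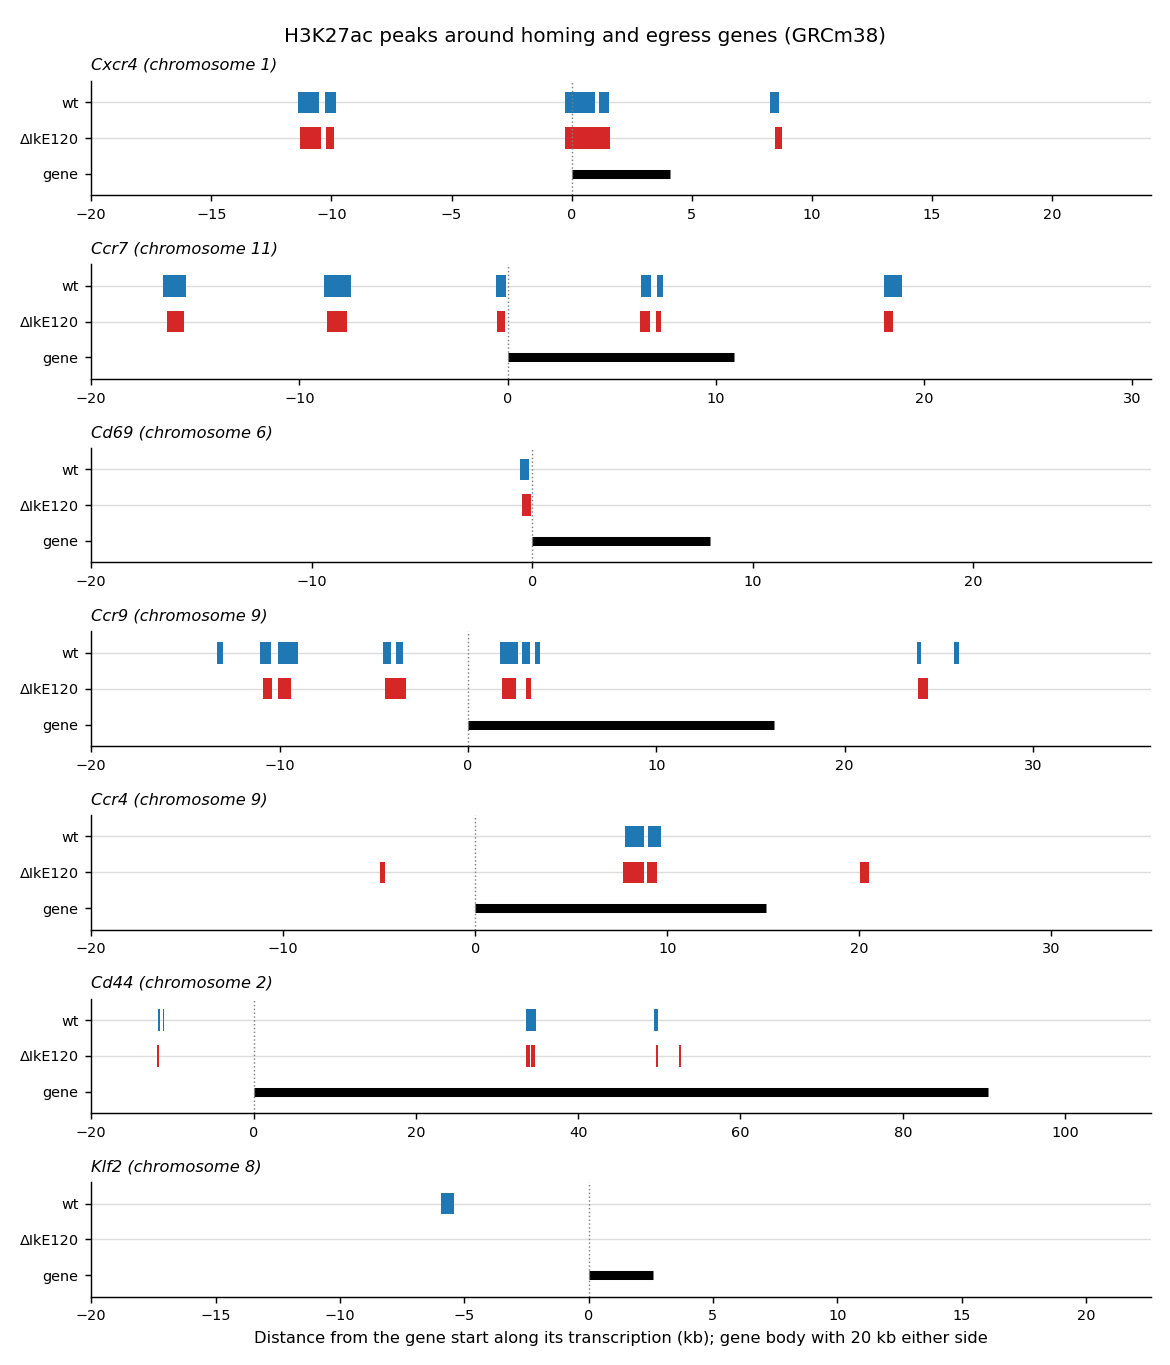
H3K27ac peaks of wt (blue) and ΔIkE120 (red) cells, 1 library each, around the 7 genes with a peak in their window; the horizontal axis is the distance from the gene start (kb) in the direction of transcription, the black bar is the gene and the dotted line its start. Peaks cross or adjoin the start at *Cxcr4*, *Ccr7* and *Cd69*, and the 1 peak of *Klf2*, 5.4 kb upstream, is found in wt.

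The egress genes held few peaks. *S1pr1*, the S1P receptor itself, on chromosome 3 from 115710433 to 115715055, had 0 peaks in its window of 44623 bp in both genotypes. Its activator *Klf2*, which starts at 72319062 on the plus strand of chromosome 8, had 0 peaks in ΔIkE120 and 1 in wt, from 72313135 to 72313660 (526 bp), 5.4 kb upstream. That peak was weak, with a -log10 q of 1.72 at the 9.3rd percentile of the wt list. *Cd69*, whose product binds the S1P receptor and is an early mark of T cell activation and positive selection, had 1 peak per genotype, just upstream of its start at 129275375 on the minus strand of chromosome 6. It ran from 129275497 to 129275918 in wt (422 bp, fold enrichment 3.24, -log10 q 2.36) and from 129275413 to 129275832 in ΔIkE120 (420 bp, 3.26 and 2.22). These peaks were nearly equal in length and enrichment, and they ranked at the 2.11th and the 1.52nd percentile of the start peaks of their lists. No other peak was called in the *Cd69* window of 48052 bp.

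Of the adhesion genes, *Itga4*, the alpha4 integrin subunit that pairs with the products of *Itgb1* and *Itgb7*, had 0 peaks in both genotypes in a window of 117689 bp on chromosome 2. *Cd44* encodes a hyaluronan receptor that early thymic precursors carry and lose as they commit to the T lineage. It starts at 102901669 on the minus strand of chromosome 2 and had no start peak in either genotype. Its window held 4 peaks over 2289 bp in wt and 5 peaks over 1586 bp in ΔIkE120, a ratio of 0.693 (log2 -0.53), the lowest of the 5 measured windows. The longest wt peak lay inside the gene, 33.6 kb from the start (102866804 to 102868063, 1260 bp, -log10 q 4.36). ΔIkE120 had a pair of shorter peaks there, from 102866934 to 102867457 (524 bp, 5.08) and from 102867662 to 102868049 (388 bp, 6.39). The same site was thus marked in both genotypes, over fewer bases in ΔIkE120. A wt peak from 102912655 to 102912881 (-log10 q 2.75) and a ΔIkE120 peak from 102849001 to 102849211 (-log10 q 1.60) had no counterpart. With flanks of 50 kb the log2 ratio was -0.70, past 1.5-fold lower, and the share of all windows past the fold with such flanks is not given here.

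Over the 9 genes, whose windows do not overlap, 17725 bp were in 29 peaks in wt and 14887 bp in 26 peaks in ΔIkE120, a ratio of 0.84. Of the wt peaks, 5 (17.2%) had no overlapping ΔIkE120 peak, against 25.6% in the whole list, and of the ΔIkE120 peaks 3 (11.5%) had no wt peak, against 13.6%. The unshared peaks lay around *Ccr9*, *Klf2* and *Cd44* in wt and around *Ccr4* and *Cd44* in ΔIkE120. They were weak, with a -log10 q of at most 2.76 in wt and 1.87 in ΔIkE120. The median -log10 q of all peaks in the 9 windows was 3.14 in wt and 3.50 in ΔIkE120, below the medians of the whole lists, 4.12 and 4.47. With peaks at or above those medians kept in each list, *Ccr7*, *Ccr9* and *Cd44* passed 1.5-fold lower (log2 -0.66, -1.51 and -0.95) and *Ccr4* 1.5-fold higher (0.68). The cut-off was thus lower in wt, and the *Cd44* wt peaks kept (-log10 q 4.37 and 4.36) were below the ΔIkE120 cut-off. At *Ccr4* the filter left out the unshared ΔIkE120 peaks. It also left out a wt peak inside the gene (659 bp, 2.59) but kept the ΔIkE120 peak overlapping it (511 bp, 4.56). After division by the ratio of all covered bases, *Ccr4* also passed 1.5-fold higher. The share of all windows past the fold with this filter or this scaling is not given here, so these calls were not set against other genes.

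Promoter sequences, 250 bases before to 50 after the start, were taken from RefSeq on GRCm38.p6, and 6 of the 9 genes matched the table, all but *Ccr7*, *S1pr1* and *Cd69*. Both strands were searched for TGGGAA (the Ikaros core, in 25.6% of all 32851 promoters of the table), TGTGGT (Runx, 16.8%), CGGAAG (Ets, 16.9%), CACCC (Klf and Sp factors, 57.5%), GATAA (Gata factors, 25.4%), CACGTG (E-box, 7.15%) and TATAAA (a core promoter element, 13.6%). A match is a description of the letters and not a binding site. *Cxcr4* is shown for its longest start peak, *Klf2* as a gene without a start peak, and *Ccr4* and *Cd44* were chosen after their values were seen, the former for the peaks beside this start and the latter for its Ikaros core letters. Capitals mark matches on either strand, and each sequence reads 5′ to 3′ along the gene.
Cxcr4: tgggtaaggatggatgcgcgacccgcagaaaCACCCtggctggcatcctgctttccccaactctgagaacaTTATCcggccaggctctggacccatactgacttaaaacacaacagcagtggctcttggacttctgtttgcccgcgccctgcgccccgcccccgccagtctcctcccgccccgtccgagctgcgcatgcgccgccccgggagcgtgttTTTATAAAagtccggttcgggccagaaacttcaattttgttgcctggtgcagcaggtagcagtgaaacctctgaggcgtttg
Klf2: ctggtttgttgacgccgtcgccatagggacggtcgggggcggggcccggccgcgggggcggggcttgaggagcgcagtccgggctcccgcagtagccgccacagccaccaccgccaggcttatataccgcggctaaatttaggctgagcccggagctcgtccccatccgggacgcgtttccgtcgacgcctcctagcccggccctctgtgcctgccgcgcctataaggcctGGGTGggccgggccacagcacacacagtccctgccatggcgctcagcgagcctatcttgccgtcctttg
Ccr4: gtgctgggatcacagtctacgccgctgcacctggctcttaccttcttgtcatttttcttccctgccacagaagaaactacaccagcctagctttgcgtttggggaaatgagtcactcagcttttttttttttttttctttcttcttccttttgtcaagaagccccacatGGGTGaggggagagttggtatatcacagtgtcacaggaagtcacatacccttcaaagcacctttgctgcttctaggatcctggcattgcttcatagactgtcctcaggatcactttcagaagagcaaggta
Cd44: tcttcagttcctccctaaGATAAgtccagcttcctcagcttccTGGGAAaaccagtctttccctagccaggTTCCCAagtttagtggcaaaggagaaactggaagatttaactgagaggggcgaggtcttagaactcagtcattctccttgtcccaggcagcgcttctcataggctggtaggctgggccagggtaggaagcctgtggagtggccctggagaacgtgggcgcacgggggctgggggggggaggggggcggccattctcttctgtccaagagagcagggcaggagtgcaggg

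The *Cxcr4* sequence (chr1:128592250-128592549, minus strand) lay inside peaks over all 300 bases in both genotypes. It held 20 CpG dinucleotides and a GC share of 59.3%, against medians of 7 and 52.7% in the table, with 1 CACCC match, 1 GATAA match and 2 overlapping TATAAA matches, of which the match on the gene's own strand began 30 bases before the start. The *Klf2* sequence (chr8:72318812-72319111, plus strand) held 32 CpG dinucleotides and a GC share of 69.3%, and 0 of its bases were in peaks of either genotype. A high CpG number, at the 91.4th percentile of the table, thus went without a called peak at *Klf2*. The *Ccr4* sequence (chr9:114496495-114496794, minus strand) held 3 CpG dinucleotides and 1 CACCC match, and 108 of its bases were in wt peaks and 115 in ΔIkE120 peaks. The *Cd44* sequence (chr2:102901616-102901915, minus strand) held 6 CpG dinucleotides, 2 TGGGAA matches and 1 GATAA match, with 0 bases in peaks. It was the 1 promoter of the 6 with the Ikaros core letters. *Itga4*, with 4 CACCC matches, 1 of them overlapping its TGTGGT match, and *Ccr9*, with 1 CACCC match, also had 0 promoter bases in peaks.

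Other genes of the same pathways, 68 in all, were listed by role. Of the 67 with a known strand, 35 had a start peak in both genotypes, and 50 windows reached the minimum of bases, with a median ratio of 0.96. In ΔIkE120, 6 of these 50 windows were at least 1.5-fold lower and 1 at least 1.5-fold higher, near the 9.09% and 1.83% of all windows measured. Among 17 further chemokine receptors, *Cxcr3* was the 1 with a start peak, in both genotypes (777 bp in wt and 621 bp in ΔIkE120), where 45.0% and 44.3% of all genes had one. *Ackr2*, a scavenging receptor, had a ratio of 0.48. The chemokine ligands, made mostly by stromal cells, had a start peak in 1 of 6 cases, *Ccl25* (1545 bp in wt and 1330 bp in ΔIkE120). Starts of other genes nearby were not looked up for these lists, so this peak is not assigned to *Ccl25* alone.

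In the S1P pathway, 4 of 9 genes had a start peak in both genotypes, namely the receptor gene *S1pr2*, the kinase gene *Sphk2*, the lyase gene *Sgpl1* and the phosphatase gene *Plpp3*. *S1pr2* thus had a start peak (1138 bp in wt and 1133 bp in ΔIkE120) while *S1pr1* had no peak. The *Plpp3* window was the 1 that was higher, with 1139 bp in wt and 2218 bp in ΔIkE120, a ratio of 1.95. It held weak ΔIkE120 peaks of 297 bp (-log10 q 1.57) and 560 bp (2.48) without a wt counterpart. Its start peak measured 1139 bp in wt and 1361 bp in ΔIkE120. Regulators of migration had start peaks in 19 of 21 cases in each genotype, among them *Coro1a*, *Gna13*, *Dock2* and *Foxo1*, a transcription factor upstream of *Klf2*. Their median ratio was 0.971, and *Plxnd1*, a semaphorin receptor, was lower at 0.549.

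Genes for integrins and other adhesion molecules had start peaks in both genotypes in 10 of 14 cases. *Itgb1* and *Itgb7*, the partners of *Itga4*, both had one, of 1373 bp and 1083 bp in wt and 1463 bp and 475 bp in ΔIkE120. *Itgb3* (0.591), *Itga5* (0.611) and *Selplg* (0.657), the selectin ligand gene, were at least 1.5-fold lower in ΔIkE120 and had start peaks in both genotypes.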

How the data were processed

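H3K27ac ChIP-seq of P5424 cells was analysed from 1 library per genotype out of 8 libraries in the series; the 4C-seq files were not used here. The authors deposited 1 broad peak list per library, with a score, a fold enrichment and the -log10 p-value and -log10 q-value of each peak. The submitters' processing notes name Bowtie2 2.3.4.3, Bowtie 1.0.0, MACS2 2.1.1, deepTools 3.2.1 and GRCm38, without their roles; the study describes an input sample. The cut-off and the depth are not given in the sources used here, so presence and extent of peaks were compared, and enrichment was ranked within a list.

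Gene positions came from RefSeq on GRCm38 and strands from the RefSeq promoter table or, by symbol, from GENCODE M1 (20924 of 21631 genes, 96.7%). Genes on the Y chromosome and the mitochondrial genome were left out. A start peak overlapped the 1 kb either side of the gene start by at least 1 base, windows reached 20 kb beyond the gene, and ratios of covered bases were set against 1.5-fold where the mean of both lists was at least 500 bp. Peaks were shared with at least 1 base of overlap. Without replicates no test was made. No exon annotation on this build was used here. Named were the 9 genes, pathway and marker genes with a start peak in 1 list or a window past 1.5-fold, and up to 4 per group with the longest wt start peak; others were chosen after their values were seen, and some genes of these lists are not reported here. Members and lists were chosen with earlier results of these data known. Alternatives were other start windows, flanks, folds, peak thresholds, overlaps and scaling, merged peaks, and peaks of neighbouring genes left out. The overlap code was tested on simulated data. Python 3.11.15, numpy 2.4.6, scipy 1.17.1 and matplotlib 3.10.9 were used.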

Additional observations from a re-analysis of the deposited data

How the results depend on the processing

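Of 51 alternative values of the counts and of the summed ratio, 30 stayed within 1.5 times the count given or within an interval of the ratio, and 21 did not. The interval (0.822 to 0.858, exact binomial at 95%) treats neighbouring bases as independent, which they are not. It served only as a cut-off for these alternatives. It does not measure the spread between libraries or a difference from other genes. With peaks of a -log10 q of at least 5, 1 gene (*Cxcr4*) had a start peak in wt and 1 in ΔIkE120. When the weaker part of each list, below its median -log10 q, was left out, 3 windows were lower and 1 higher, and the summed ratio was 0.737. The cut-off was 4.12 in wt and 4.47 in ΔIkE120, so the lists were not filtered alike. The share of all windows past the fold with this filter is not given here, nor is it for the settings below. These counts of lower and higher windows were therefore not set against other genes. When the peaks kept were set against the other list without that filter, 0 wt peaks and 0 ΔIkE120 peaks were unshared. A lower fold gave 3 lower and 1 higher, and scaling to all covered bases 1 higher. Flanks of 0 kb gave 1 lower, a summed ratio of 0.873, and 1 unshared peak in wt and 1 in ΔIkE120. Flanks of 10 kb gave 0.868 and 3 unshared wt peaks, and flanks of 50 kb 1 lower and 11 unshared wt peaks. With the same number of top peaks from each list, the summed ratio was 0.904 and 5 ΔIkE120 peaks were unshared. With an overlap of 50% of the peak, 8 wt peaks were unshared. The summed ratio was below 1 under each alternative run. Of 35 alternative log2 ratios of single windows, 29 kept their side of the fold and 6 passed it. Wider or narrower flanks hold more or fewer peaks by construction; for the other changes the cause was not tested. Depth is unknown, so a weak peak found in 1 list does not show that the mark was absent from the other library.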

Other observations

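Some genes of lineages other than T cells had a peak at their start. *Ebf1*, a B cell transcription factor, had 758 bp in wt (-log10 q 2.74) and 253 bp in ΔIkE120 (-log10 q 2.28), and its window ratio was 0.609. *Klf1*, an erythroid factor, had 2315 bp in wt and 2327 bp in ΔIkE120, and *Pdgfrb*, a stromal marker, had 227 bp and 509 bp, both weak (-log10 q 2.16 and 1.66). *Pax5*, *Csf1r*, *Ncr1*, *Sox2* and *Nanog* had no start peak in either genotype. *Cxcr5*, a chemokine receptor of B cells and follicular helper T cells, had no start peak, yet its window held 8431 bp in wt and 7767 bp in ΔIkE120, more than any of the 9 homing and egress genes. Other genes within this window were not looked up, so these bases are not assigned to *Cxcr5*.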
